A study of Arabidopsis thaliana with 12 samples.

Results

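The net change of transcript levels over the whole course of synchronized flower development, from uninduced meristems to flowers 8 days after induction, was measured for 20899 of the 28327 loci on a custom Arabidopsis array with 2 colours. All 12 arrays of the series entered it. The plants carried pAP1:AP1-GR in the ap1-1 cal-1 double mutant, so that all groups shared both mutations and the transgene, whose AP1-GR fusion protein is expressed from the AP1 promoter and activated by dexamethasone (DEX). Inflorescences collected 8 days after the first treatment were set against inflorescences collected before induction (day 0), by way of the days 2 and 4 in between. Plants grew at 20 °C under long days and were treated daily with 2 µM DEX in 0.01% ethanol with Silwet L-77, and the labels give all samples the treatment Dex, although the day 0 tissue was collected before it. There were 4 biologically independent replicate sets. In each set 3 arrays compared day 2 with day 0, day 4 with day 2, and day 8 with day 4, always with extracts of the same set. The 3 log2 ratios of later over earlier day were added up within a set, which gave 4 values of day 8 over day 0 per gene, called net changes here. No array held both day 8 and day 0. The methods state that tissue of the later days was collected some hours after that day's treatment, and the day 0 tissue directly after a mock solution. No mock-treated tissue of a later day was among the samples, so that time, repeated treatment and induction of AP1 cannot be told apart in these ratios.

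Without APETALA1 (AP1) and its close relative CAULIFLOWER (CAL), plants make inflorescence meristems in place of flowers and build up cauliflower-like heads. Restoring AP1 activity turns these meristems into floral meristems in near synchrony. In a young flower, MADS-domain transcription factors of the classes B, C and E then specify petals, stamens and carpels, stem cells are used up, and the organ primordia pass from division to growth and differentiation.

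Per channel, 55.7% to 73.6% of the probes were marked well above background, and none was marked saturated. The array of day 8 over day 4 in set 2 stood apart, with 66.5% and 73.6% against at most 62.6% elsewhere. It had 1340 probes marked as outliers, against 23 to 110 on the other arrays with matching scanner files. Ratios of exactly 0 made up 11.8% of its probes, against 23.1% to 29.9% on the other arrays. The later day carried Cy5 in sets 1 and 3 and Cy3 in sets 2 and 4 on all 3 arrays, so that a dye bias adds up within a set and cancels in the mean over the 4 sets. Across probes the 4 net changes correlated at 0.879 and 0.853 between sets of the same orientation, and at 0.705 to 0.755 between sets of opposite orientation. The deposited scanner files of sets 3 and 4 of the day 2 to day 0 comparison did not match the deposited ratios of these arrays. The 4 deposited columns of that comparison correlated with each other at 0.839 to 0.894, and they were used throughout. Whether a spot was above background at day 0 therefore rests on sets 1 and 2 only.

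At day 8, 3190 genes were higher and 2362 lower than at day 0, which together make 26.6% of the genes tested (limma, Benjamini-Hochberg adjusted p below 0.05 and at least 1.8-fold). The higher genes were 15.3% and the lower genes 11.3% of all genes tested. By the estimates, the rises reached much further than the falls. At 4-fold or more, 1617 genes were higher and 386 lower. At 16-fold or more there were 515 higher and 40 lower genes, and at 64-fold or more 158 and 7. Of the higher genes, 646 were well above background in no day 0 channel, and of the lower genes 129 in no day 8 channel. The sizes of these changes were not measured, so that the counts at high folds partly rest on dim probes. Of the called genes, 5185 had net changes of the same sign in all 4 sets, as did 52.0% of all genes tested. The median net change of all genes was -0.11 on the log2 scale. The balance of both directions depended on the settings. Without the fold minimum 4952 genes were higher and 6689 lower, and with a test against 1.2-fold 3611 were higher and 3786 lower. With the median of each array set to 0, 3525 genes were higher and 1815 lower. With the scanner intensities background-corrected by normexp and normalized by loess, an alternative in which very high local backgrounds were replaced and that was chosen after seeing the data, 2716 were higher and 1207 lower. In these sums over whole inflorescences, fewer cells of a type and less RNA per cell cannot be told apart.

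**Figure D1:**
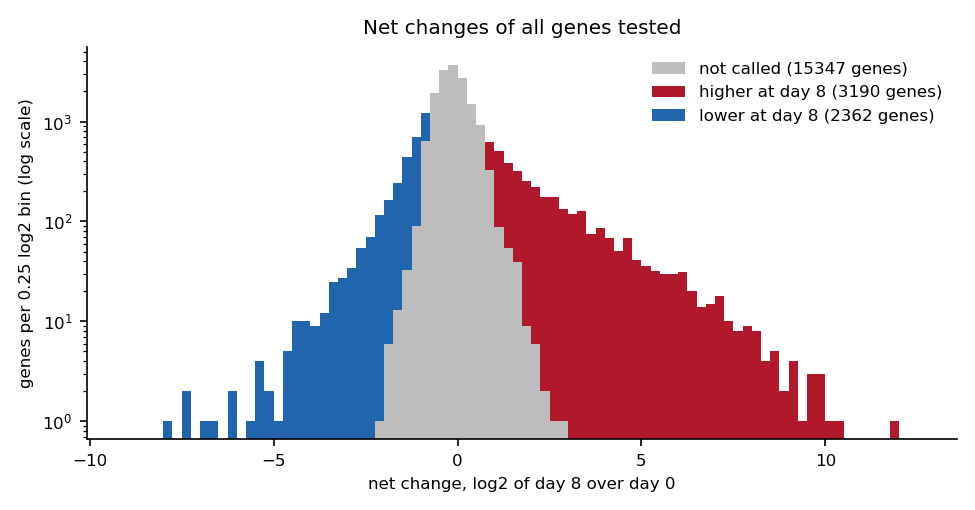
Number of genes (log scale) in bins of 0.25 of the net change, on the log2 scale as day 8 over day 0, for genes called higher, called lower and not called. The right side reaches to 11.78 and the left side to -7.75, and 1617 genes lie at 4-fold or more above 0 against 386 below it. Genes dim at day 0 or day 8 are drawn at their estimate, although their sizes were not measured.

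The last step was the largest one most often. Of the 3190 higher genes, 1757 had the largest of their 3 steps in the direction of the net change between days 4 and 8, 1053 between days 0 and 2, and 380 between days 2 and 4. Among the 2362 lower genes the same numbers were 1465, 778 and 119. The median steps of the higher genes were 0.63 over the first 2 days, 0.03 in the second step and 1.27 in the last. Those of the lower genes were -0.51, -0.01 and -0.73. All 3 steps went in the direction of the net change in 912 higher and 992 lower genes. Of the higher genes, 438 were well above background in all 4 day 8 channels and in none of the day 0 channels. Of the lower genes, 89 were in none of the day 8 channels and in both measured day 0 channels.

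Of the 12 largest rises, GSTU4 and LEA7 belonged to the lists of stress and of abscisic acid genes, and none belonged to the lists of floral or meristem regulators. The gene with the largest net change was NIT2 (AT3G44300), a nitrilase, with 12.73, 12.48, 12.25 and 9.66 in sets 1 to 4 (limma estimate 11.78 ± 0.44, SE, n = 4 sets, adjusted p = 2.54e-05). Values of a gene are given in this order and on the log2 scale throughout, the fold beside them is that of the estimate, and adjusted p-values are those of limma over all probes. The SE is that of limma after the dye term, so that it leaves out differences between dye orientations. Its median over genes was 0.1185, and 0.197 in a fit without the dye term. Set 4 was the lowest by far, and all sets were far above 0. The probe was not well above background at day 0, and by the channel levels, which were available at day 0 for sets 1 and 2, it was at least 224-fold higher at day 8. RAP2.6 (AT1G43160), an ethylene response factor of the AP2/ERF family, had 11.76, 11.64, 7.2 and 11.22 and was at least 161-fold higher. Here set 3 stood below the others. PDF1.4 (AT1G19610), of the plant defensin family, also had its lowest value in set 3, with 10.84, 10.52, 7.0 and 10.84, and was at least 57.5-fold higher.

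LEA7 (AT1G52690), a late embryogenesis abundant protein of the kind that accumulates in drying tissue, was measured at both ends and had 10.25, 9.08, 9.34 and 11.77 (10.11 ± 0.43, adjusted p = 3.62e-05), which is 1105-fold. The tau class glutathione transferases GSTU4 (AT2G29460) and GSTU3 (AT2G29470), which detoxify reactive compounds, were neighbours in this order. GSTU4 had 10.73, 9.73, 9.59 and 9.65 (973-fold), the steadiest of the 12 largest rises by its standard error. GSTU3 had 10.9, 9.52, 9.02 and 9.17 and was at least 32-fold higher. AT3G15500, listed under the symbol NAC3 for a transcription factor of the NAC family, had 10.88, 8.7, 8.63 and 8.76 and was at least 68.5-fold higher, with set 1 above the other sets. The remaining 5 were named by locus only. AT3G17110 had an estimate of 9.55 and was well above background in 1 of the 2 measured day 0 channels. AT2G38240, AT5G16960, AT4G12735 and AT3G63380 were well above background in neither, and were at least 44-fold, 32.8-fold, 37.9-fold and 26.5-fold higher at day 8, with estimates of 9.95, 9.64, 9.46 and 9.25 on the log2 scale. The lowest value of any set among these 5 was 7.42, in set 4 of AT3G63380.

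The genes that fell furthest included several developmental regulators, among them PUCHI of the meristem list and INO of the lists of polarity and ovule genes. WIP5 (AT1G51220), a zinc finger protein of the WIP family, had -8.72, -6.4, -7.35 and -8.54 (-7.75 ± 0.42, adjusted p = 7.37e-05). It was not well above background in any day 8 channel and was at least 11-fold lower at day 8. FTM1 (AT1G43800), FLORAL TRANSITION AT THE MERISTEM 1, had -6.11, -7.77, -7.81 and -8.09 (175-fold lower), and set 1 showed the smallest fall. INO (AT1G23420), a YABBY gene known for the outer integument of ovules, had -6.65, -5.76, -6.18 and -8.42 (108-fold lower), with set 4 the lowest. It was well above background in 2 of 4 day 8 channels, so that the size of this fall is uncertain. PUCHI (AT5G18560), an AP2/ERF gene of floral meristem identity and organ boundaries, had -5.63, -4.97, -5.52 and -5.82 (-5.49 ± 0.17, adjusted p = 1.60e-05).

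RTFL7 (AT3G55515), a small protein of the ROTUNDIFOLIA family, had -6.81, -4.33, -7.53 and -5.79 and was at least 6.04-fold lower. PUM10 (AT1G35750), an RNA-binding protein of the Pumilio family, had -4.88, -3.79, -6.21 and -6.44 and was well above background in 1 of 4 day 8 channels. UCC1 (AT2G32300), a copper-binding uclacyanin, had -7.3, -4.48, -5.24 and -4.11 and was at least 2.38-fold lower. Its 2 sets with the smallest falls were sets 2 and 4, which carried the later day in Cy3. Of the other 5 of the 12 largest falls, AT4G17990, AT1G32280 and AT1G80580 had estimates of -7.36, -6.22 and -5.75 and were well above background in 2 of 4 day 8 channels. AT4G35810 and AT2G28970 were well above background in no day 8 channel and were at least 5.88-fold and 3.16-fold lower, with estimates of -6.69 and -5.38.

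**Figure D2:**
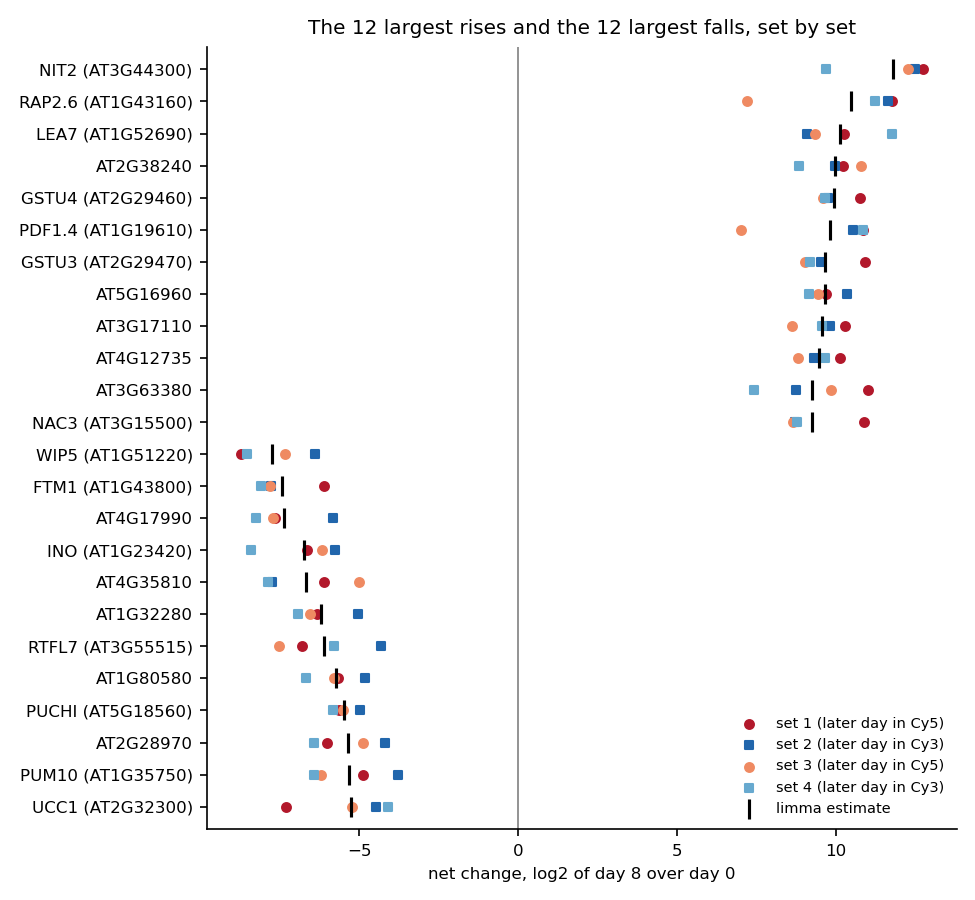
Net change in each of the 4 replicate sets (points, coloured by set and shaped by the dye of the later day) and limma estimate (bar) for the 12 largest rises and the 12 largest falls, on the log2 scale as day 8 over day 0. All rises lie at 7.0 or above and all falls at -3.79 or below. The genes were chosen with 4 sets of the same sign, so that none can have sets on both sides of 0. NIT2, RAP2.6, PDF1.4 and AT3G15500 have 1 set well away from the other 3.

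Of 14 tested members of the list of MADS-domain genes that specify floral organs, 8 were higher and 2 lower, with a median net change of 1.83 against -0.11 over all genes. The class B gene AP3, needed for petals and stamens, had 6.74, 5.28, 7.26 and 6.34 (6.4 ± 0.19, adjusted p = 1.37e-05), which is 84.7-fold. Its partner PI had 2.41, 1.05, 2.43 and 1.32 (1.8 ± 0.08, adjusted p = 4.62e-05), only 3.48-fold. For both genes the sets with the later day in Cy5 were the higher ones. PI also changed less than AP3 in each of the 4 sets.

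The class C gene AG, which specifies stamens and carpels and ends the floral meristem, had 4.47, 3.67, 4.97 and 4.16 (20-fold, adjusted p = 1.54e-05). Among the class E genes, whose products join the other classes in complexes, SEP3 had 6.39, 4.29, 6.68 and 4.1 (41.2-fold), SEP2 2.95, 3.1, 3.07 and 3.4 (8.75-fold) and SEP1 1.97, 2.38, 2.49 and 2.43 (4.98-fold). SEP3 split by dye, with sets 1 and 3 above 6 and sets 2 and 4 near 4. SEP4 was not called, with -0.23 ± 0.09. SHP1 and SHP2, which act in carpels and fruit valve margins, had 2.01, 2.5, 0.67 and 2.89 (2.02 ± 0.28, adjusted p = 0.00217) and 2.14, 2.32, 1.36 and 1.65 (1.87 ± 0.25, adjusted p = 0.00182).

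STK, the MADS gene of ovule identity, and CAL went the other way. STK had -4.96, -3.97, -3.89 and -5.11 and was in no day 8 channel well above background, so that it was at least 2.27-fold lower. CAL, which is mutated in these plants, had -2.29, -1.66, -2.25 and -1.66 (3.9-fold lower, adjusted p = 2.98e-05). AP1 itself was not called, with 0.34, -0.47, 0.41 and 0.16 (0.11 ± 0.12, adjusted p = 0.452). Transcripts of the AP1-GR transgene hold AP1 sequence, and this probe may measure them together with those of the mutated gene. FUL and AGL6 had estimates of -0.24 and 0.09 and were not called either.

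**Figure D3:**
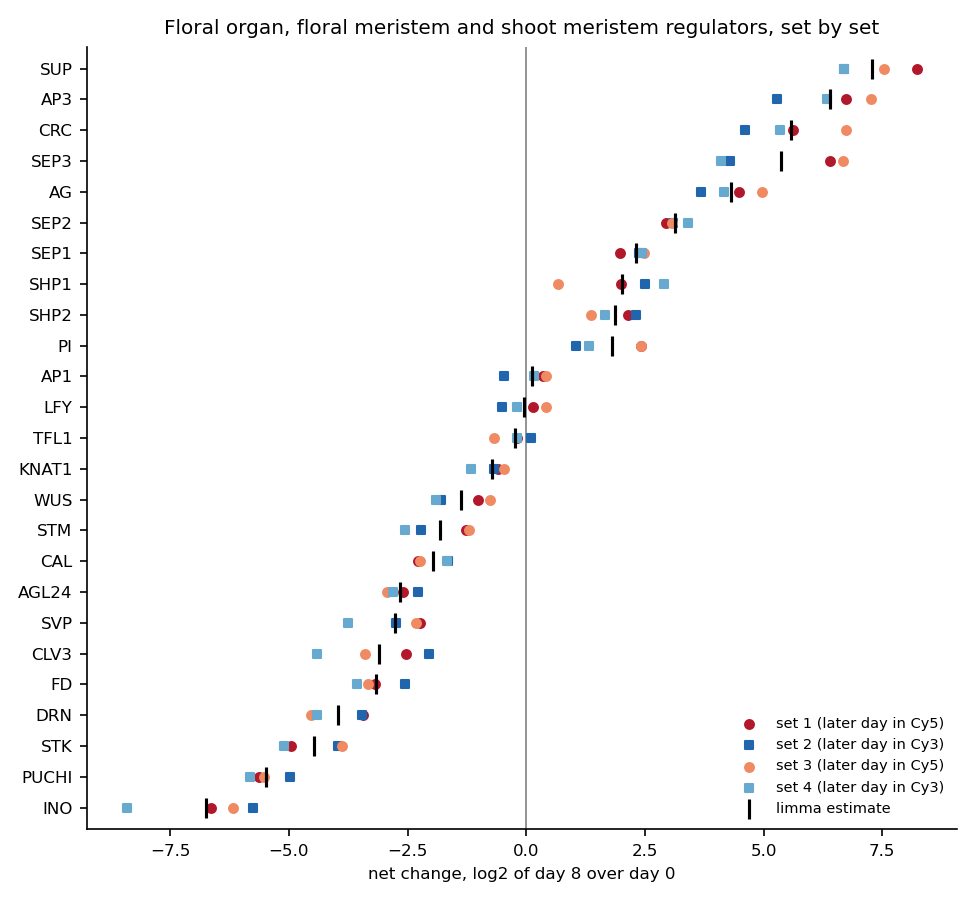
Net change in each replicate set (points) and limma estimate (bar) for regulators of floral organs, floral meristems and shoot meristems, on the log2 scale as day 8 over day 0, ordered by estimate. The 10 genes from SUP to PI lie to the right of 0 in all 4 sets, AP1, LFY and TFL1 have sets on both sides, and the genes from KNAT1 down lie to the left in all 4 sets.

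Of 31 tested shoot meristem genes, 18 were lower, 2 higher and 11 not called, and the median was -0.96. PUCHI had the largest fall of the list. The AP2/ERF genes DRN, with -3.44, -3.45, -4.54 and -4.41 (15.6-fold lower, adjusted p = 9.25e-05), and DRNL, with -2.9, -2.17, -2.94 and -3.24 (7.03-fold lower), were lower as well. Both act where lateral organs begin. CLV3, the secreted peptide that marks shoot stem cells, had -2.54, -2.04, -3.4 and -4.41 (8.55-fold lower, adjusted p = 0.00181).

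WUS, the homeobox gene of the organizing centre below the stem cells, had -1.02, -1.8, -0.78 and -1.91 (2.59-fold lower, adjusted p = 2.38e-04). STM, the homeobox gene that keeps meristem cells undifferentiated, had -1.27, -2.22, -1.2 and -2.55 (3.51-fold lower, adjusted p = 5.28e-05). In both genes the falls were smaller in sets 1 and 3 than in sets 2 and 4. KNAT1, a homeobox gene of the inflorescence stem and meristem, had -0.59, -0.68, -0.47 and -1.16 and stayed under the fold needed for a call. The defining markers of shoot and inflorescence meristems were all still well above background in at least 3 of 4 day 8 channels. The 2 members that rose were the homeobox gene ATH1, with 2.45, 1.14 and 0.79 in sets 1, 2 and 4 (the spot of set 3 was left out), and ULT2, of the ULTRAPETALA family, with 1.58, 2.27, 1.2 and 1.07.

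Of 29 tested genes of flowering time and floral meristem identity, 13 were lower, 3 higher and 13 not called, with a median of -0.83. SAP (STERILE APETALA), a regulator of floral organ patterning, had -3.11, -2.82, -3.48 and -4.39 (10.9-fold lower). FD, the bZIP factor that works with the flowering signal FT, had -3.2, -2.55, -3.34 and -3.58 (8.98-fold lower). The MADS genes SVP and AGL24, which act in flowering time and in young floral meristems, had -2.24, -2.76, -2.32 and -3.76 (6.81-fold lower) and -2.6, -2.28, -2.94 and -2.81 (6.31-fold lower). All 4 genes were well below 0 in every set.

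AP2, which acts in sepals and petals, was higher, with 1.51, 1.66, 1.43 and 1.56 (2.91-fold, adjusted p = 4.83e-05). SMZ, an AP2-like repressor of flowering, had 0.67, 2.25, 1.06 and 1.24. XAL2, a MADS gene, had 1.83, 1.42, 2.0 and 3.05, was not well above background at day 0 and was at least 1.27-fold higher. Its call was lost without set 1 (2.11), set 3 (2.03) or set 4 (1.66). LFY, a main regulator of floral meristem identity, had a net change of -0.04 ± 0.09 after steps of 1.01, 0.04 and -1.08, so that it stood above day 0 at day 2 and back at the day 0 level at day 8. TFL1, which keeps inflorescence meristems from turning into flowers, had -0.2, 0.11, -0.68 and -0.2 and was not called.

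Several regulators of single organs rose. Among carpel, style and ovule genes, 11 of 36 tested members were higher and 7 lower (median 0.01). That is 30.6% and 19.4%, against 15.3% and 11.3% of all genes tested. SUP, KNU and HEC1 were dim at day 0 and passed the filter only through a later day. The higher share is therefore partly set by the filter. SUP, a zinc finger gene of the boundary between stamens and carpels, had 8.24, 6.69, 7.54 and 6.68 and was at least 6.23-fold higher, since no day 0 channel was well above background. CRC, a YABBY gene of carpels and nectaries, was measured at both ends and had 5.62, 4.61, 6.74 and 5.34 (47.6-fold, adjusted p = 2.66e-05). KNU, a zinc finger gene that acts when floral stem cells stop, had 3.07, 5.33, 5.22 and 4.63 and was at least 1.81-fold higher. HEC1, a bHLH gene of the carpel tip and transmitting tract, had 3.7, 3.9, 8.0 and 5.64 and was at least 4.47-fold higher, with widely spread sets.

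The lower members of the same list included the ovule genes INO and STK given above, and members of the SHI family that act in style development. STY1 had -2.51, -2.5, -2.4 and -2.47 (5.55-fold lower, adjusted p = 2.12e-05), nearly the same in all 4 sets. SRS7 had -1.36, -2.21, -1.46 and -2.43 (3.65-fold lower).

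Of 20 tested genes of organ polarity and outgrowth, 5 were higher and 4 lower (median -0.16). The zinc finger genes JAG and NUB, which drive growth of organ primordia, had 4.74, 5.83, 5.16 and 4.76 (34.8-fold, adjusted p = 2.98e-05) and 2.43, 3.13, 3.17 and 2.38 (6.86-fold). Both rose mostly in the first 2 steps, with steps of 4.44, 1.47 and -0.78 in JAG. AS2, a LOB-domain gene of leaf polarity, had 1.56, 1.87 and 1.17 in sets 2 to 4, the spot of set 1 being left out. With that spot kept the estimate was 0.89 and the call was lost. Among the lower members YAB5, a YABBY gene of lateral organs, had -1.76, -1.07, -1.48 and -1.19, and ETT, an auxin response factor of gynoecium patterning, had -1.46, -1.03, -1.13 and -1.59. KAN4, of the KANADI family of abaxial fate, had -1.7, -0.46, -1.3 and -0.26, and its call was lost without set 1 (-0.83) or set 2 (-0.88).

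Petal, sepal and cuticle genes had 13 of 36 members higher and 1 lower (median 0.42). SHN1, an AP2/ERF regulator of cuticle and epidermal cell shape, had 5.29, 6.39, 5.1 and 6.21 (53.7-fold, adjusted p = 1.04e-05). RBE, a zinc finger gene of petal development, had 5.14, 4.3, 5.4 and 3.97 (26.1-fold). CYP86A7, of a family of fatty acid hydroxylases, had 3.38, 2.73, 6.29 and 5.05 (20.6-fold). The single lower member was WBC11, a transporter of cuticle lipids, whose sets disagreed by dye. It had 0.8, -2.45, 0.55 and -3.46, and without set 1, 3 or 4 it was not called (-1.2, -1.08 and -0.89).

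Of the 40 anther and pollen wall genes listed, 28 passed the filter on dim probes and 12 of these were higher and 3 lower, with a median of 1.21. Members dim at day 0, such as NZZ, DYT1, AMS, ROXY2 and RPG1, passed the filter only through a later day. The share of higher members and the median are therefore partly set by the filter. With normexp and loess and high backgrounds replaced, 6 were higher. NZZ (also SPOROCYTELESS), needed to start sporogenous cells, had 7.7, 8.19, 8.88 and 6.57 and was at least 12.7-fold higher. TGA9, a bZIP factor of anther formation, had 5.23, 6.53, 6.45 and 7.32 (83.5-fold, adjusted p = 2.66e-05). ROXY2, a glutaredoxin of anther lobes, had 3.01, 7.9, 3.96 and 6.52 and was at least 5.66-fold higher. Its 2 highest sets were those with the later day in Cy3. ROXY1, its paralogue that also acts in petals, was lower, with -1.17, -0.96, -1.51 and -1.78.

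DYT1, a bHLH gene of the young tapetum, had 2.7, 4.78, 4.04 and 6.34 and was at least 1.94-fold higher. AMS, the tapetal bHLH gene that follows it, had only 0.43, 0.57 and 5.14 in sets 1, 3 and 4, with the spot of set 2 left out. By level AMS was at least 1.5-fold higher. Without set 1, 3 or 4 this probe had too few sums to be tested. The gene was then represented by another probe, with 1.38, 1.3 or 0.32, none of them called. RPG1, a sugar transporter needed for pollen wall pattern, had 4.86, 4.26, 3.27 and 6.44 and was at least 4.09-fold higher. CALS5, a callose synthase of the pollen wall, was lower, with -2.87, -1.16, -2.32 and -1.5, and so was the receptor kinase BAM1, with -0.57, -1.29, -0.45 and -1.47. The late tapetal gene MS1 was among the 12 members of this list that did not pass the filter at any day.

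The list of meiosis genes had 21 of 29 tested members lower and 1 higher (median -1.07). ASY1, a protein of the meiotic chromosome axis, had -2.5, -2.89, -2.05 and -2.76 (5.85-fold lower, adjusted p = 6.87e-05), the largest fall of the list. MSH5, which acts in crossover formation, had -1.61, -2.19, -0.9 and -2.1. PRD2, needed for meiotic double-strand breaks, had -1.92, -1.38, -1.57 and -1.04, and the helicase gene MER3 had -2.2, -0.85, -1.04 and -1.41. The 1 higher member was the cohesin gene SYN1, with 1.14, -0.25, 2.63 and 0.88 (adjusted p = 0.049), and it was not called without set 2, 3 or 4 (1.38, 0.73 and 0.81). The number of lower members was 13 without set 1, and 6 with the intensities processed by normexp and loess with high backgrounds replaced.

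Of 36 tested genes of DNA replication, 28 were lower and none higher (limma), the range of the list was -1.84 to 0.27 and the median -1.18. At an unadjusted p below 0.05 the numbers were 32 below and 1 above 0. PCNA1, the sliding clamp of DNA polymerase, had -1.64, -2.28, -1.45 and -2.01 (3.59-fold lower, adjusted p = 4.65e-05). ORC1A, a subunit of the origin recognition complex, had -2.04, -1.23, -2.06 and -1.59. MCM10, a replication initiation factor, had -1.8, -1.33, -1.83 and -1.95, and PRL (PROLIFERA), a subunit of the MCM helicase, had -2.48, -1.05, -2.15 and -0.53. The fall came in the first and the last step, with medians of -0.75, 0.19 and -0.67 for the 3 steps.

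Of 40 mitosis genes, 26 were lower and none higher (limma, median -0.92), with step medians of -0.17, 0.09 and -0.93. At an unadjusted p below 0.05 there were 37 below and 0 above. CYCB1;3, a B-type cyclin, had -2.03, -1.08, -1.81 and -0.89 (2.73-fold lower, adjusted p = 8.30e-05). CDKB1;2, a cyclin-dependent kinase of the entry into mitosis, had -1.33, -1.42, -1.03 and -1.29. SMC2, a subunit of condensin, had -0.95, -1.52, -0.96 and -1.39, and CKS1, a small binding partner of these kinases, had -1.99, -0.89, -1.64 and -0.43 and was not called without set 1 (-1.15). Many of these falls lay close to the 1.8-fold limit. The count of lower mitosis genes was 17 without set 1, 13 with the median of each array set to 0, and 14 with normexp and loess and high backgrounds replaced.

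At an unadjusted p below 0.05 (limma), 26 of 33 core histone and chromatin genes were below 0 and 1 above it. Called lower were 7 (21.2%) and called higher none (limma), against 11.3% and 15.3% of all genes tested. These included the chromatin remodeller DDM1, with -2.37, -1.21, -2.04 and -1.72 (3.57-fold lower, adjusted p = 1.22e-04), and the DNA methyltransferase genes MET1, with -1.87, -1.23, -1.42 and -1.08, and CMT3, with -1.32, -1.09, -1.3 and -1.12. SUVH4, a histone methyltransferase that works with CMT3, had -1.34, -1.17, -1.31 and -1.1. Of the 12 growth regulating factors and their co-activators 1 was higher and 3 lower. GRF8 had 3.41, 2.46, 3.87 and 2.54 (8.4-fold, adjusted p = 2.34e-05), while GRF6 had -1.11, -0.57, -2.42 and -1.38. The co-activators GIF3 and GIF1 had -1.05, -1.14, -1.13 and -0.86 and 0.27, -1.93, 0.26 and -2.66. GIF1 was below 0 in the Cy3 sets only and was not called without set 4 (-0.83).

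**Figure D4:**
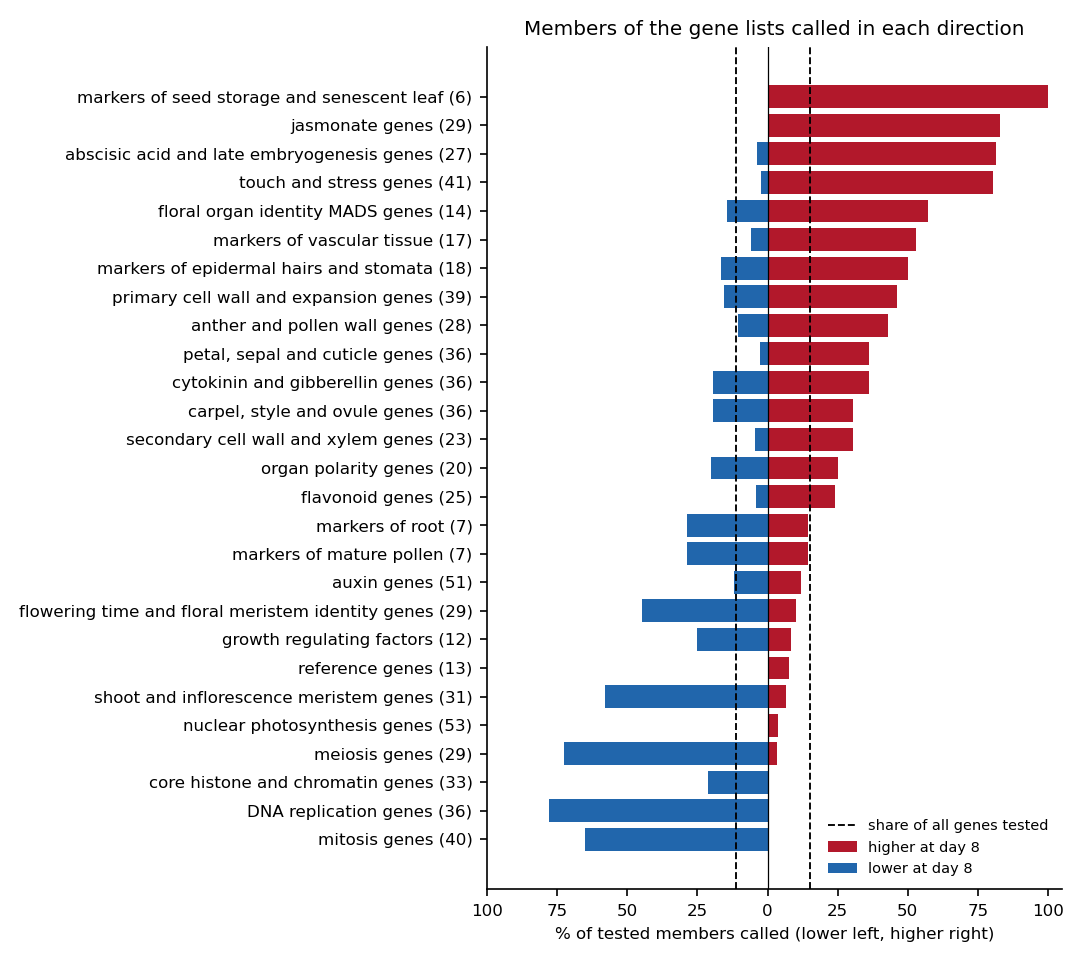
Percentage of the tested members of each gene list that were called higher (red, to the right) and lower (blue, to the left) at day 8, with the number tested in brackets and the shares of all genes tested as dashed lines (15.3% higher, 11.3% lower). Jasmonate, abscisic acid and stress genes stand furthest to the right among the larger lists, and DNA replication, meiosis and mitosis genes furthest to the left. Members dim at day 0 passed the filter only through a later day, and members dim at day 8 only through an earlier one. The shares are therefore partly set by the filter.

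Jasmonate genes had the largest share of higher members among the lists of over 6 genes, with 24 of 29 higher and none lower (limma, median 2.77), and 27 and 0 at an unadjusted p below 0.05. The biosynthesis genes AOC1 and AOC2, allene oxide cyclases, had 9.34, 6.46, 9.32 and 7.44 and 8.86, 8.49, 7.65 and 7.2. AOC1 was not well above background at day 0 and was at least 20.8-fold higher, and AOC2 was 265-fold higher (adjusted p = 2.13e-05). LOX2, a lipoxygenase at the start of the pathway, had 4.14, 4.6, 4.86 and 4.21 (21.9-fold), and CORI3, a jasmonate-induced gene, 5.61, 6.49, 6.67 and 6.22 (76-fold). Of the repressors of the pathway, JAZ1 had an estimate of 4.07, JAZ6 of 3.62 and JAZ10 of 3.29. The receptor gene COI1, with 0.34, was not called.

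Of 41 touch and stress genes, 33 were higher and 1 lower (median 2.59). Their course was not steady, with medians of 3.4 in the first step, -2.21 in the second and 1.32 in the last. The alternative oxidase genes of mitochondria, AOX1A and AOX1D, had 7.12, 7.23, 7.82 and 7.34 and 8.29, 7.01, 7.93 and 7.25. AOX1A was 166-fold higher (adjusted p = 6.43e-06). AOX1D was not well above background at day 0 and was at least 11.5-fold higher. GSTF7, a phi class glutathione transferase, had 7.97, 6.94, 6.47 and 5.94 (114-fold). The 1 lower member was the ethylene response factor ERF6, with -2.04, -1.14, 0.09 and -0.87, which was not called without set 1 (-0.46), set 2 (-0.92) or set 4 (-1.06).

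Abscisic acid and late embryogenesis genes, which respond to drying and accompany seed maturation, had 22 of 27 members higher and 1 lower (median 2.21). Next to LEA7 these were led by LTI30, a dehydrin, with 8.68, 7.44, 7.63 and 8.5 (268-fold, adjusted p = 1.50e-05). LEA4-5 had 6.85, 4.79, 8.53 and 4.88 (76.8-fold), with the Cy5 sets higher than the Cy3 sets. RD26, a NAC transcription factor of drought response, had 6.27, 6.44, 5.59 and 5.09 (57.6-fold). The lower member HAI3, a protein phosphatase, had -0.9, -0.83, -0.64 and -1.2 and was not called without set 1 (-0.83), set 3 (-0.96) or set 4 (-0.8).

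Auxin genes were close to the share of all genes, with 6 of 51 higher and 6 lower (median 0.02), but single members moved far. IAA2, an Aux/IAA repressor gene induced by auxin, had 3.23, 3.9, 2.61 and 3.3 (9.58-fold, adjusted p = 4.10e-05), and IAA19 of the same family had 1.67, 1.03, 1.25 and 1.87. LAX3, an auxin influx carrier, had 2.71, 1.95, 1.81 and 0.77. GH3.1, of the family that conjugates auxin, had 1.9, 1.44, 2.52 and 0.9, was at least 1.13-fold higher and was not called without any 1 of the 4 sets (1.54 to 1.84). On the lower side IAA29 had -4.27, -4.08, -4.62 and -5.31 (23.8-fold lower, adjusted p = 1.23e-04) and IAA20 had -1.86, -2.09, -2.33 and -2.31. The auxin biosynthesis genes YUC4 and YUC2 had -1.01, -1.67, -1.63 and -2.52 and -1.87, -1.88, -1.55 and -1.38.

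Of 36 cytokinin and gibberellin genes, 13 were higher and 7 lower (median 0.17), and gibberellin metabolism had members on both sides. Members dim at day 0, such as GA2OX6, GA2OX1 and GA20OX3, passed the filter only through a later day. The share of higher members is therefore partly set by the filter. GA2OX6 and GA2OX1, whose products inactivate gibberellins, had 6.56, 7.87, 7.33 and 6.21 and 2.61, 3.2, 3.47 and 5.11 and were at least 6.59-fold and 1.67-fold higher. GA20OX3 and GA3OX1, of the biosynthesis branch, had 2.76, 5.85, 3.92 and 2.02 (at least 1.68-fold higher) and 4.66, 4.55, 2.8 and 2.0. In the same branch GA20OX1 was lower, with -4.48, -2.66, -5.28 and -4.34 (18.3-fold lower, adjusted p = 1.99e-04), as was GA3OX3, with -2.89, -2.78, -2.42 and -3.09. GA2OX4, of the inactivating family, had -2.76, -2.71, -2.75 and -2.9 and was lower too. AHP6, an inhibitor of cytokinin signalling that acts around organ primordia, had -3.33, -3.91, -3.14 and -4.51 (13.2-fold lower).

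Cell wall genes rose more often than they fell. Of 39 primary wall and expansion genes, 18 were higher and 6 lower (median 0.70). Members dim at day 0, such as XTH18 and XTH25, passed the filter only through a later day, so that the higher share is partly set by it. XTH18, a xyloglucan-modifying enzyme, had 8.28, 6.84, 8.28 and 7.31 and was at least 14.4-fold higher, and XTH25 had 4.95, 4.31, 3.61 and 3.96 and was at least 4.23-fold higher. The aquaporin genes PIP2;2 and PIP2;1, which let water into growing cells, had 7.82, 8.24, 7.3 and 5.88 (159-fold) and 4.61, 3.86, 4.36 and 3.35 (16.5-fold, adjusted p = 1.25e-05). Other members of the same enzyme family fell. XTH15 had -1.64, -2.86, -2.5 and -1.45, XTH4 -1.72, -1.95, -2.21 and -0.81 and XTH9 -1.32, -2.08, -1.38 and -0.72, and the expansin gene EXPA9 had -1.56, -0.8, -1.32 and -1.8.

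Among 23 tested genes of secondary walls and xylem, 7 were higher and 1 lower (median 0.61). IRX15-L, which acts in xylan synthesis, had 2.45, 2.57, 2.33 and 1.25, and the NAC genes XND1 and VND7, regulators of xylem cells, had 2.08, 1.69, 1.92 and 1.12 and 1.97, 1.85, 1.67 and 1.07. MYB63, a regulator of lignin genes, had 2.19, 3.63, 1.19 and 1.55, was at least 1.27-fold higher and was not called without set 1 (1.89). Its relative MYB58 was lower, with -0.97, -0.17, -1.69 and -1.44, and was not called without set 3 (-0.89) or set 4 (-0.75). Flavonoid and phenylpropanoid genes had 6 of 25 members higher and 1 lower (median 0.51). That is 24.0% and 4.0%, against 15.3% and 11.3% of all genes tested. PAL1 and 4CL1, early enzymes of the pathway, had 2.05, 2.47, 2.09 and 1.89 (4.36-fold) and 2.64, 3.31, 2.96 and 2.71 (7.5-fold, adjusted p = 4.73e-05). PAL4 had 4.82, 3.53, 2.31 and 2.5 and was at least 1.5-fold higher. PAP1, a MYB regulator of anthocyanin, had widely spread sets at 2.36, 4.55, 5.11 and 0.91. TT4, chalcone synthase, was lower, with -1.92, -2.08, -0.96 and -0.73.

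Few nuclear photosynthesis genes were called. Of 53 tested, 2 were higher and none lower (limma, median 0.08, range -0.66 to 1.16). The 2 were LHCB2.1, of the light-harvesting complex, with 1.03, 0.63, 1.73 and 1.25, and PETE1, a plastocyanin, with 1.23, 0.4, 1.28 and 0.63, which was not called without set 4 (0.83). At an unadjusted p below 0.05, 19 were above and 6 below 0. With a test against 1.2-fold in place of the 1.8-fold limit 7 members were higher and 1 lower.

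Markers of other tissues gave a mixed picture. Of 17 vascular markers 9 were higher and 1 lower (median 0.88). In the phloem the sugar exporters SWEET12 and SWEET11 had 3.14, 2.61, 3.28 and 2.13 (6.93-fold) and 2.29, 1.95, 1.81 and 1.19 (3.51-fold), whereas the defining markers SUC2 and APL had estimates of 0.11 and -0.17 and were not called. In the xylem the proteases XCP1 and XCP2 had 1.78, 1.63 and 1.56 in sets 1, 3 and 4 (the spot of set 2 was left out) and 1.19, 0.94, 0.94 and 0.63 in all sets. XCP2 was not called without set 2 (0.848). TMO5, a bHLH gene of young vascular cells, was lower, with -1.01, -1.19, -1.68 and -1.47.

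Of 18 markers of epidermal hairs and stomata 9 were higher and 3 lower (median 0.67). The stomatal lineage genes TMM, EPF2, SPCH and MUTE had 1.41, 2.21, 2.49 and 2.24, 1.35, 1.85, 2.92 and 1.86, 1.62, 2.34, 1.47 and 1.49 and 1.38, 0.44, 3.29 and 1.57. TMM was 4.25-fold higher (adjusted p = 3.20e-04). MUTE was not called without set 3 (1.19) or set 4 (1.38). The hair regulators CPC, GL2 and TTG2 were the lower members, with -2.14, -1.82, -2.11 and -2.27, -1.54, -2.13, -1.04 and -2.09 and -1.84, -0.35, -1.37 and -1.08.

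Of 18 mature pollen markers 11 did not pass the filter at any day, the defining VGD1, PPME1 and TIP1;3 among them. The 7 tested members had 1 higher and 2 lower, which is 14.3% and 28.6% against 15.3% and 11.3% of all genes tested. GEX3 had 3.21, 0.76, 2.77 and 1.69, was at least 1.46-fold higher and was not called without set 1 (2.0) or set 4 (1.88). HAP2 had -2.04, -0.76, -1.0 and -2.11 and was not called without set 1 (-1.22) or set 4 (-1.14), and CNGC18 had -1.1, -0.67, -1.2 and -0.96. Of 19 root markers 12 did not pass the filter, and of the other 7 the homeobox gene WOX5, known for the root stem cell niche, was higher with 6.17, 4.72, 5.56 and 4.62 (38.5-fold, adjusted p = 1.60e-05). The hair genes CPC and RHS10 (-1.23, -1.81, -1.47 and -1.54) were lower, and PLT1 was not called (0.18 ± 0.75, with the spot of set 2 left out). The shares of the 7 tested root markers were also 14.3% higher and 28.6% lower.

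All 6 tested genes of the 16 listed for seed storage and senescent leaves were higher. The other 10 did not pass the filter, and SESA1 and SAG13, dim at day 0, passed it only through a later day. This share is therefore partly set by the filter. The senescence genes ORE1 and NAP, both NAC transcription factors, had 7.65, 7.05, 7.03 and 6.57 (135-fold, adjusted p = 9.01e-06) and 4.84, 6.11, 4.37 and 6.08 (40.7-fold). SEN1 had 4.75, 5.5, 3.14 and 4.18 (21-fold), and SAG13 had 7.62, 7.87, 7.71 and 5.66 and was at least 11.9-fold higher. The seed storage gene SESA1 had 3.73, 1.46, 1.62 and 1.65 with no day 0 channel well above background, at least 1.33-fold higher, and was not called without set 1 (1.59), 2 (2.16) or 4 (2.07). The other storage and oil body genes of the list did not pass the filter. Of 13 genes in common use as references, 12 were not called, with estimates between -0.68 and 0.78. GAPC1 was called with 2.81, 5.17, 3.97 and 4.12, but its single probe was dim, in no day 0 channel well above background, and at least 1.6-fold higher by level.

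The same net change was reached along different courses. AP3 stood at 5.41 over day 0 by day 2, at 6.45 by day 4 and at 6.4 by day 8, so that its rise was complete by day 4. JAG, SUP and RBE were above their day 8 means at day 4, with 5.91, 7.99 and 5.19 at day 4 and 5.12, 7.29 and 4.71 at day 8. SUP was not well above background at day 0, so that its sizes over day 0 were not measured. AG and SEP3 gained in each step, with 2.88, 3.9 and 4.32 for AG.

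The organ genes CRC, SHN1 and TGA9 started later. NZZ had all 4 ratios of the first step set to 0 and no day 0 channel well above background. Its course before day 2 was therefore not measured. CRC was at -0.52 at day 2, 2.4 at day 4 and 5.57 at day 8, and SHN1 at -0.78, 1.57 and 5.75. CLV3 fell mainly after day 4, with -0.34, -0.92 and -3.1, and DRNL was above day 0 at day 2, with 0.52, before it reached -2.81.

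The stress genes GSTU4, AOX1D and GSTF7 were far above day 0 at day 2 and lower at day 4 than at days 2 and 8. GSTU4, highest at day 8, was at 7.86 at day 2, 4.75 at day 4 and 9.93 at day 8, AOX1D at 8.26, 3.41 and 7.62, and GSTF7 at 8.13, 4.5 and 6.83. AOX1D and GSTF7 had their highest mean at day 2. AOX1D was not well above background at day 0, so that its sizes over day 0 were not measured. In LEA7 and LOX2 most of the rise came after day 4, with 2.66 and 0.78 at day 4 against 10.11 and 4.45 at day 8.

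**Figure D5:**
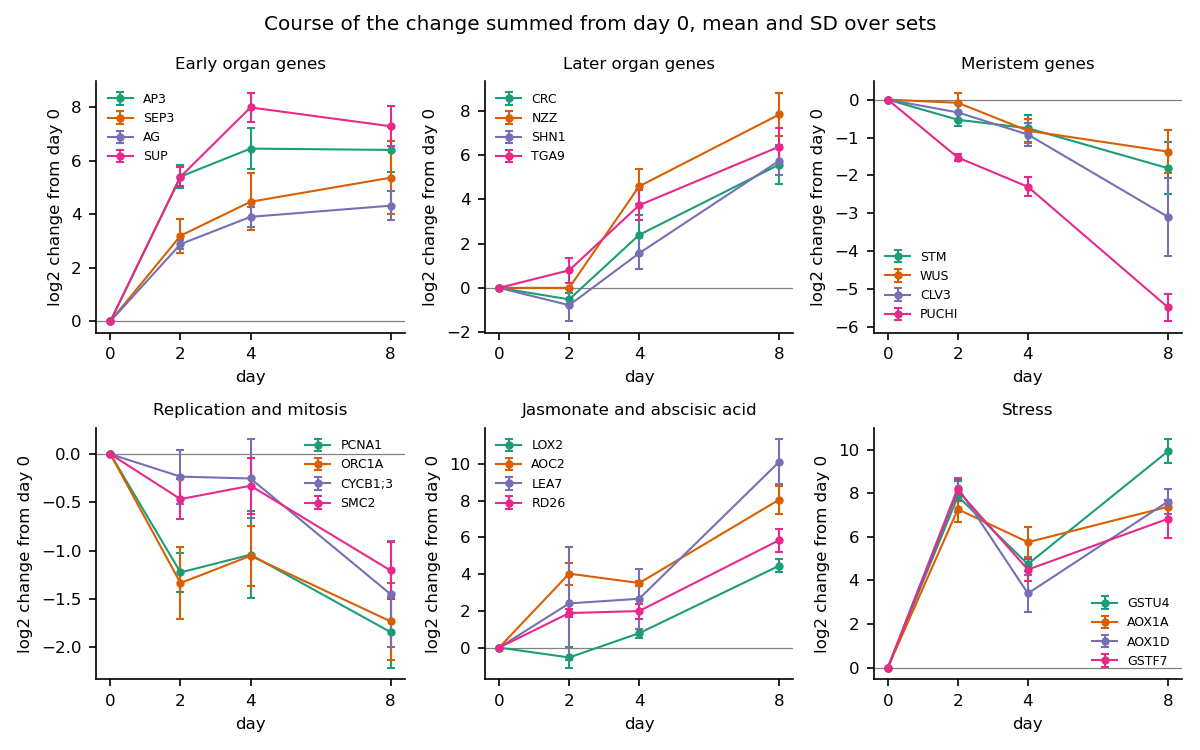
Mean change from day 0 (y axis, log2) at days 2, 4 and 8 (x axis) with SD over the 4 sets for 4 genes each of 6 groups, each panel with its own y scale. AP3 is at its day 8 level by day 4, and SUP is above its day 8 mean then. CRC, NZZ, SHN1 and TGA9 rise after day 2, and STM, WUS, CLV3 and PUCHI decline to day 8. The 4 stress genes are lower at day 4 than at days 2 and 8. SUP, NZZ and AOX1D were not well above background at day 0, so that their sizes over day 0 were not measured.

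Probes of the same gene mostly moved together. Of 1044 called genes with several probes, 791 had all other probes called in the same direction, 35 had a probe with the opposite sign and 2 had a probe called in the opposite direction. The dye term of the model was called for 3848 of 28231 probes, with a median size of 0.50 over all probes, and 546 called genes had a dye term larger than their net change. A term for the slide of the last 2 steps was called for 38 probes, and 3676 had an unadjusted p below 0.05. All arrays of the first step were on 1 slide, so that this slide and the first step cannot be told apart.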

How the data were processed

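RNA of 16 extracts (4 days in 4 sets) was hybridised to 12 arrays designed on TAIR8 gene models, with 43643 probes other than controls for 28327 loci. In the deposited series table the authors gave a log10 ratio of Cy5 over Cy3 per probe, background subtracted and dye normalized by Agilent Feature Extraction per the file headers. The deposited scanner files hold the intensity of spot and local background in both channels, and quality marks. On 10 arrays at least 99.98% of the probes had the same log10 ratio in both within 0.0001. For sets 3 and 4 of the first comparison 16.3% and 20.2% did (r = 0.314 and 0.271). Ratios of all arrays came from the series table, and the marks of these 2 scanner files were not used.

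Ratios were turned so that the later day was on top, converted to log2 and summed within sets. Same-numbered extracts were paired on the arrays per the labels, so that the sum is the replicate block. Probes were kept if 50% or more of the channels of 1 day were marked well above background (28231 probes, 20899 genes), 718 spots marked as outliers were left out, 16 probes with fewer than 3 sums were not tested and 670 had 3 sums. Ratios that the software had set to 0 were kept, and 390 called genes had 1 or more. The sums were fitted with limma 3.58.1 in R 4.3.3, with a dye term and an intensity trend (2 residual degrees of freedom, 5.84 after moderation), and adjusted after Benjamini and Hochberg over all probes. The median residual SD between sets after the dye term was 0.247 for the net change and 0.154, 0.156 and 0.201 for the steps. It leaves out differences between dye orientations. The number of arrays limits the precision. A gene was represented by its brightest probe and called at an adjusted p below 0.05 and 1.8-fold. The fit was tested on simulated data. The bounds for dim probes set the mean level of the bright day against the higher of the dim probe's own level and the lowest level well above background, from normexp, loess and Aquantile on the 10 matching arrays. They may hold dye bias.

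Named genes were the 12 largest rises and falls among called genes with 4 sums of the same sign, up to 4 called members of each list in each direction, and defining markers. The numbers of genes in 28 lists were counted without a test, and 38 chloroplast genes were not tested. Members and lists were chosen with earlier results of these data known. Symbols came from a gene table of TAIR10.1, which matched 99.3% of the loci tested. No coordinates are given because the builds differ, and a planned search of promoters was not run. Replicates 1 to 4 were left out in turn, and the filter, centring, dye term, slide, trend, thresholds, probe choice and intensity processing were varied.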

Additional observations from a re-analysis of the deposited data

Results flagged for a closer look

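Each gene named in the text with 4 sums was checked for a set that stood apart from the other 3 by Dixon's test at its 95% critical value. ATH1, AS2, AMS, XCP1 and PLT1 had 3 sums and were not checked. Of the 181 genes named, those not checked included, 10 had such a set, and chance flags about 1 group in 20. That rate takes the 4 values as alike, whereas the sets fell into pairs by dye orientation. The set in question was set 1 in 4 genes, set 2 in 2, set 3 in 2 and set 4 in 2.

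In NIT2 set 4 had a net change of 9.66 on the log2 scale, and the others lay between 12.25 and 12.73. In SAG13, a senescence gene, set 4 had 5.66 against 7.62 to 7.87. RAP2.6 and PDF1.4 had their low value in set 3, with 7.2 against 11.22 to 11.76 in RAP2.6 and 7.0 against 10.52 to 10.84 in PDF1.4. Set 1 was the high one in GSTU4, with 10.73 against 9.59 to 9.73, in AT3G15500, with 10.88 against 8.63 to 8.76, and in SESA1, with 3.73 against 1.46 to 1.65. It showed the smallest fall in FTM1, with -6.11 against -8.09 to -7.77. In SPCH, which starts the stomatal lineage, set 2 had 2.34 against 1.47 to 1.62. GLIP4, which had no net change that was called, had -1.31 in set 2 against 0.42 to 0.52, and was well above background in no channel of day 0 or day 8. Each of the other 9 genes kept its direction in all 4 sets, and SESA1 was not called without set 1 (1.59). NIT2, RAP2.6, GSTU4, PDF1.4, AT3G15500 and FTM1 had been chosen with 4 sets of the same sign.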

How the results depend on the processing

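Counts under other settings differed as follows, and the cause was not tested. The planned normexp and loess of the scanner intensities, in which 6 of 10 arrays held single local backgrounds far above the rest, called 1537 genes (999 higher, 538 lower) and reversed SYN1 (-0.096) and MUTE (-0.52), and called AT1G70270 lower (-1.73), which was not called in the series table. With these backgrounds replaced, an alternative chosen after seeing the data, 2716 were higher and 1207 lower. Of the 5552 genes, 5524 had the same sign, 4015 also reached 1.8-fold and 3807 were still called. The median ratio of their estimates to those of the main fit was 0.80. The same with sets 1 and 2 only, also chosen after seeing the data, gave 1027 lower genes. From the series table, sets 1 and 2 alone gave 1545 lower genes, and sets 3 and 4 alone gave 2429 genes, 1724 higher and 705 lower. Without a fold minimum 11641 genes were called, 4952 higher and 6689 lower, and a test against 1.2-fold called 3611 higher and 3786 lower. Without the replicate block, with the 12 arrays as independent, 3114 were higher and 2343 lower, and AMS, SYN1, WBC11, ERF6 and GH3.1 were not called. Leaving out 1 set gave 2817 to 3038 higher and 1986 to 2279 lower genes. With no filter on dim probes 4557 genes were called, 2576 higher and 1981 lower. Detection at day 0 rests on 2 channels, at day 8 on 4, so that small differences of dim probes cannot be seen.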

Other observations

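Families of genes that share a symbol and had at least 20 tested members differed widely, and these were looked at after the values of all genes were seen. Of 25 tau class glutathione transferases (GSTU) 19 were higher and none lower (limma), and 19 and 1 at an unadjusted p below 0.05. Of 50 UDP-glycosyltransferases (UGT), which attach sugars to small molecules, 33 were higher and 4 lower, and of 25 beta-glucosidases (BGLU) 15 were higher and none lower (limma), and 16 and 1 at an unadjusted p below 0.05. Among transcription factor families, 30 of 65 NAC, 26 of 56 WRKY and 39 of 90 MYB genes were higher, against 2, 6 and 14 lower. The higher shares were 46.2%, 46.4% and 43.3% and the lower shares 3.08%, 10.7% and 15.6%. Of all genes tested, 15.3% were higher and 11.3% lower. On the lower side WRKY genes were thus near the share of all genes and MYB genes above it. The median net change was 2.71 for GSTU, 1.86 for UGT, 0.77 for NAC and 0.51 for WRKY genes, and -0.11 for all genes.

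In other families few genes were called. Of 110 genes named for embryo-defective mutants (EMB) 2 were higher and 7 lower, with 9 above and 50 below 0 at an unadjusted p below 0.05 and a median of -0.24. Of 21 genes with the ribosomal protein symbol RPL none was higher and 1 lower (limma), and 2 and 7 at an unadjusted p below 0.05.

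The CLE family of signal peptides, to which CLV3 belongs, had called members on both sides, with 6 of 23 higher and 7 lower, which is 26.1% and 30.4% against 15.3% and 11.3% of all genes tested.

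Probes without a locus name leaned the other way from the named genes. Of 1157 tested, 70 were higher and 255 lower, which is 6.05% and 22.0%.

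A small net change did not always mean a flat course. Of 6597 genes with a net change under 1.2-fold, 24 were beyond 4-fold at day 2 or day 4, 16 above day 0 and 8 below it. AT1G70270 stood at -3.28 over day 0 at day 2 and at 0.01 at day 8, and was well above background in all measured channels of both ends. GLIP4, of a family of lipases, was well above background in all 6 measured day 2 channels and in none at day 0 or day 8, so that neither its rise to day 2 nor its net change has a measured size. Both were chosen after their values were seen.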
